A study of Fagopyrum tataricum with 12 samples.

Results

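The genes described here are 9 annotated regulators of flavonoid synthesis in Tartary buckwheat (Fagopyrum tataricum), out of 26750 genes counted. They were chosen by their deposited identifiers, and no rule on measured values was used. Their deposited symbols and IDs are MYB12 (evm.TU.Ft1.1742 and evm.TU.Ft5.363), MYB4 (evm.TU.Ft5.2593 and evm.TU.Ft6.1649), MYB5 (evm.TU.Ft2.1616), MYB6 (evm.TU.Ft5.2098), TTG1 (evm.TU.Ft3.2198), GL3 (evm.TU.Ft1.1874) and BHLH42 (evm.TU.Ft1.1211), written below without the prefix. All 9 passed the filter on low counts, and 22063 genes of the series did. RNA was taken from leaf and stem of hydroponic seedlings of cultivar Dingku1 at the 2-leaf stage, grown in long days. The control group stood in Hoagland's nutrient solution and was sampled at 0 h, and the other groups were sampled after 2, 4 or 8 h in 20% PEG-6000, which draws water away from roots without entering the cells. Each of the 4 groups had 3 libraries, and the study asked which MYB genes act on flavonoid synthesis under drought.

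Flavonoid genes of plants are switched by R2R3-MYB proteins, many of which bind DNA together with a bHLH protein and a WD40 scaffold. In Arabidopsis MYB12 activates the early, flavonol-forming genes without bHLH partners. Complexes of a MYB, a bHLH (GL3, EGL3 or TT8) and the WD40 protein TTG1 activate the later genes of anthocyanin and proanthocyanidin synthesis there. Other R2R3-MYB proteins carry a repressor motif, and Arabidopsis MYB4 is the best known of them, acting on cinnamate 4-hydroxylase. Tartary buckwheat is known for its rutin, a glycosylated flavonol. The gene names used here are those of the deposited annotation, and their activity in buckwheat was not measured.

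Library totals ran from 30468104 to 37395814 counted reads. Levels are CPM (TMM-scaled), changes are log2 values from edgeR's quasi-likelihood test with their SE, and a gene is called at a Benjamini-Hochberg adjusted p below 0.05 over all genes tested. Leaf markers (17 genes for Rubisco small subunit, Rubisco activase and light-harvesting proteins) summed to 80424 to 86031 FPKM at 0 h and to 11597 to 12179 FPKM at 8 h, with 16 of 17 lower at 8 h. Markers of stem xylem (13 genes) summed to 223 to 241 FPKM at 0 h and to 513 to 525 FPKM at 8 h, with 9 of 13 higher. Most of that sum came from 2 XCP1 genes, with means of 234 and 87.3 FPKM over the 12 libraries. The next highest marker, CESA4, had 3.38 FPKM. Trichome markers (2 GL2 genes) summed to a mean of 38.7 ± 1.7 FPKM (SD, n = 3) at 0 h, 25.6 ± 1.0 at 2 h, 29.6 ± 1.4 at 4 h and 39.6 ± 1.0 at 8 h, and shoot meristem markers (KNAT1 and STM) to 10.2 ± 1.2, 4.57 ± 0.59, 3.11 ± 0.39 and 6.47 ± 0.50. Root markers (4 genes, of which 1, a PHO1 gene, passed the filter) summed to 11.7 ± 0.8 FPKM at 0 h and 0.203 ± 0.036 at 8 h. The part of these shifts in the results below was not tested, and in such mixed tissue fewer cells of a type cannot be told apart from less RNA per cell. The morning clock gene LHY fell from 0 to 8 h, with log2 changes of -8.79 ± 0.06 (evm.TU.Ft5.2081) and -7.30 ± 0.06 (evm.TU.Ft7.3783), and the evening genes APRR1 and GI rose by 3.94 ± 0.06 and 1.71 ± 0.04. No untreated group at 2, 4 or 8 h was analysed here, so the length of PEG treatment and the hour of the day cannot be told apart.

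After 8 h in PEG 7 of the 9 regulators were higher than in the control and 1 was lower, in a comparison in which 70.9% of all genes tested were called, 36.4% higher and 34.5% lower. The rises were those of GL3 (3.69-fold), MYB12 Ft5.363 (2.92-fold), MYB6 (1.97-fold), MYB5 (1.96-fold), BHLH42 (1.88-fold), MYB4 Ft6.1649 (1.38-fold) and TTG1 (1.09-fold). The fall was that of MYB12 Ft1.1742, which was 7.98-fold lower. MYB4 Ft5.2593 was not called at 8 h. At 2 h 3 regulators were higher and 4 lower, with 63.2% of all genes called (31.6% higher, 31.7% lower), and at 4 h 4 were higher and 2 lower, with 72.8% called (35.1% higher, 37.7% lower). With 9 genes the totals called (7, 6 and 8) are read against these shares, and nothing particular to the regulators is read from them. The median log2 change of the 9 was -0.17 at 2 h, 0.08 at 4 h and 0.91 at 8 h, and over all genes tested it was 0.00, -0.04 and 0.03. The 3 comparisons share the control libraries, so a high or low control moves them together.

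**Figure D1:**
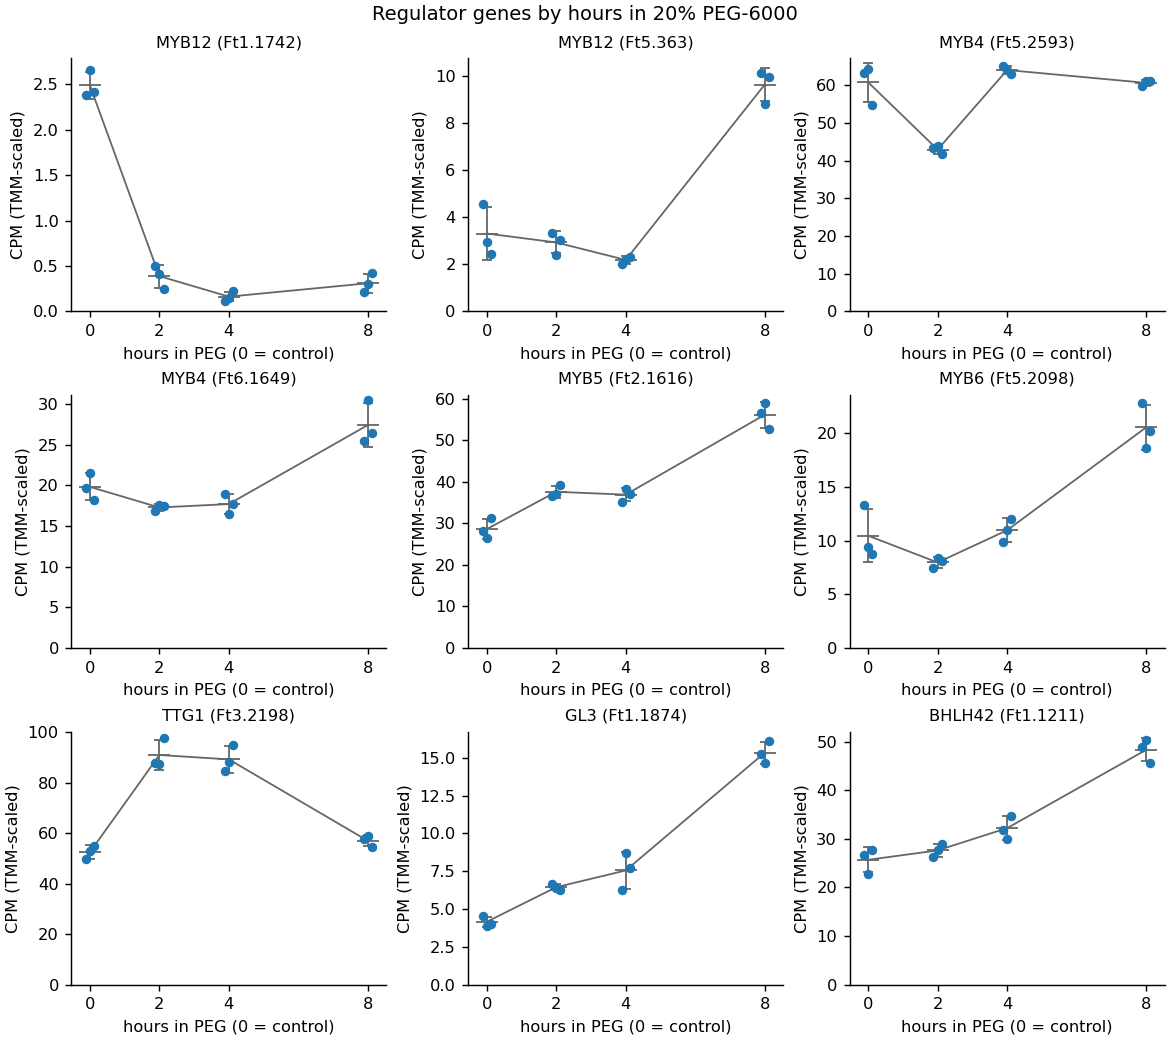
Level of each regulator gene (CPM, TMM-scaled, vertical axes from 0) against hours in 20% PEG-6000, where 0 is the control. Points are the 3 libraries of a group, set slightly apart, and the lines join group means with bars of 1 SD. MYB12 Ft1.1742 is near 0 from 2 h on, while MYB12 Ft5.363, GL3, MYB5, MYB6 and BHLH42 stand highest at 8 h and TTG1 at 2 and 4 h.

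The activator MYB12 is present as 2 genes with this symbol, and they moved apart. MYB12 Ft1.1742 had 2.39, 2.66 and 2.42 CPM in the control libraries, 0.501, 0.411 and 0.249 CPM at 2 h, 0.116, 0.148 and 0.219 CPM at 4 h, and 0.208, 0.301 and 0.417 CPM at 8 h. All 9 PEG libraries lay below all controls, with the values at 8 h overlapping those at 2 h and 4 h. The log2 change was -2.68 ± 0.34 at 2 h, -3.93 ± 0.40 at 4 h and -3.0 ± 0.35 at 8 h (adjusted p at 8 h 9.99e-10, edgeR). The PEG values rest on few reads, from 4 to 18 per library against 87 to 98 in the controls. A further fall from 2 to 4 h (-1.25 ± 0.49, edgeR adjusted p = 0.029) was lost when any of 4 libraries (replicates 1 and 2 of 2 h and of 4 h) was left out, with adjusted p from 0.062 to 0.127.

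MYB12 Ft5.363 had 4.55, 2.93 and 2.42 CPM in the controls, 3.31, 2.41 and 3.04 CPM at 2 h, 2.01, 2.22 and 2.31 CPM at 4 h, and 10.1, 8.81 and 9.93 CPM at 8 h. The 8 h libraries stood above all others, and control replicate 1 stood above the other controls. The log2 change at 8 h was 1.54 ± 0.16 against the control (edgeR adjusted p = 5.76e-11) and 2.14 ± 0.17 against 4 h, a 4.42-fold rise. At 4 h it was -0.60 ± 0.19 against the control (edgeR adjusted p = 0.0046), and without control replicate 1 this became -0.30 with an adjusted p of 0.159. At 2 h it was not called (-0.17 ± 0.18).

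The log2 ratio of reads of Ft5.363 over Ft1.1742 needs no scaling between libraries. Its mean was 0.36 ± 0.50 (SD, n = 3) at 0 h, 2.91 ± 0.55 at 2 h, 3.68 ± 0.33 at 4 h and 4.95 ± 0.51 at 8 h. The values ran from 0.00 to 0.93 in the controls and from 4.53 to 5.52 at 8 h, and control replicate 1, with 166 reads of Ft5.363 and 87 of Ft1.1742, had the highest ratio of the controls. Every PEG library had a higher ratio than every control. The ratio differed between the 4 times (exact permutation test over 12 libraries, p = 0.00013, where the smallest p possible is 6.49e-05).

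**Figure D2:**
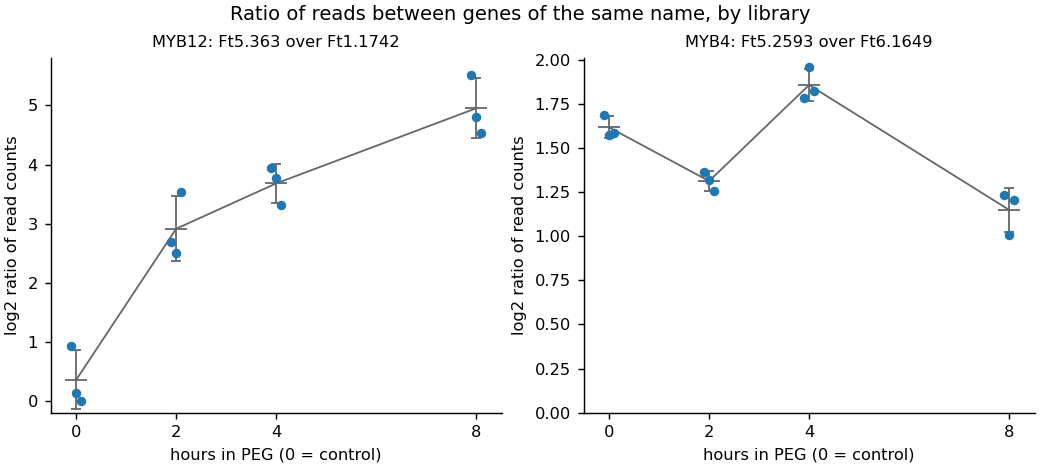
Log2 ratio of read counts between the genes of 1 symbol, with 0.5 added to each count, against hours in PEG. Points are libraries, and lines join the means of 3 with bars of 1 SD. The MYB12 ratio goes from 0.36 to 4.95 over 8 h, while the MYB4 ratio is lowest at 8 h (1.15) and highest at 4 h (1.86).

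Ft5.2593 and Ft6.1649, 2 of the genes with the symbol MYB4, were both less abundant at 2 h than in the control, and at 8 h Ft6.1649 was called higher and Ft5.2593 was not called. MYB4 Ft5.2593, annotated as a transcription repressor, had 63.4, 64.3 and 54.8 CPM in the controls, 43.4, 43.8 and 41.7 CPM at 2 h, 65.1, 64.1 and 63.0 CPM at 4 h, and 59.8, 61.2 and 61.0 CPM at 8 h. The 2 h libraries lay below all the others, and the other times overlapped the control. The log2 change was -0.50 ± 0.05 at 2 h (edgeR adjusted p = 4.75e-11), and from 2 to 4 h it was 0.58 ± 0.05 (adjusted p = 2.47e-12). At 4 and 8 h the gene was not called against the control (0.08 ± 0.05 and -0.00 ± 0.05). Without TMM scaling the change at 8 h was 0.15 and passed the threshold (edgeR adjusted p = 0.0099), on a scale where the median gene changed by 0.18.

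MYB4 Ft6.1649, annotated as an MYB-like factor, had 19.6, 21.6 and 18.2 CPM in the controls, 16.8, 17.6 and 17.5 CPM at 2 h, 18.9, 16.4 and 17.8 CPM at 4 h, and 25.4, 30.4 and 26.4 CPM at 8 h. The 8 h libraries stood above the other 9. The log2 change at 8 h was 0.47 ± 0.07 against the control (edgeR adjusted p = 7.56e-07) and 0.66 ± 0.08 against 2 h. The fall at 2 h was small (-0.20 ± 0.08, edgeR adjusted p = 0.025) and was lost without control replicate 2 (-0.13, adjusted p = 0.179) or 2 h replicate 1 (-0.18, adjusted p = 0.070).

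The log2 ratio of Ft5.2593 over Ft6.1649 had a mean of 1.62 ± 0.06 (SD, n = 3) at 0 h, 1.31 ± 0.05 at 2 h, 1.86 ± 0.09 at 4 h and 1.15 ± 0.12 at 8 h. No library of 4 h overlapped one of another time. The ratio differed between the times (exact permutation test, p = 6.49e-05, the smallest possible). Per coding length, Ft5.2593 was the more abundant at each time, with 77.8 ± 7.1 against 23.4 ± 2.1 FPKM at 0 h and 86.2 ± 1.8 against 36.0 ± 3.6 FPKM at 8 h.

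MYB5 Ft2.1616 and MYB6 Ft5.2098, both annotated as repressors, had their highest means at 8 h. Proteins named MYB5 have been studied in the seed coat of Arabidopsis, where MYB5 acts with TT2 and a bHLH in proanthocyanidin synthesis. MYB5 (Ft2.1616) had 28.2, 26.5 and 31.2 CPM in the controls, 36.5, 37.1 and 39.2 CPM at 2 h, 35.2, 38.4 and 37.1 CPM at 4 h, and 56.6, 59.0 and 52.8 CPM at 8 h. Every PEG library lay above every control, the 2 and 4 h libraries overlapped, and the 8 h libraries stood above all. Its log2 change was 0.39 ± 0.06 at 2 h, 0.37 ± 0.06 at 4 h and 0.97 ± 0.06 at 8 h (edgeR adjusted p at 8 h 8.07e-18).

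MYB6 (Ft5.2098) had 13.3, 9.37 and 8.71 CPM in the controls, 7.41, 8.37 and 8.11 CPM at 2 h, 9.84, 10.99 and 12.05 CPM at 4 h, and 22.8, 18.6 and 20.2 CPM at 8 h. The 8 h libraries stood above the others, and control replicate 1 was the highest library of the rest. The log2 change was 0.98 ± 0.11 at 8 h against the control (edgeR adjusted p = 2.41e-10) and 1.37 ± 0.11 against 2 h. The call at 2 h (-0.39 ± 0.12, edgeR adjusted p = 0.0037) rested on control replicate 1, and without it the change was -0.18 with an adjusted p of 0.158. Without that library the change at 4 h, 0.07 with all libraries, was 0.28 and was called (edgeR adjusted p = 0.025).

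The WD40 and bHLH partners had different courses. TTG1 (Ft3.2198), the scaffold of the complex, had 49.6, 52.8 and 55.0 CPM in the controls, 87.6, 87.4 and 97.8 CPM at 2 h, 84.4, 88.3 and 94.9 CPM at 4 h, and 57.5, 58.8 and 54.6 CPM at 8 h. The 2 and 4 h libraries stood above the others, and the 8 h libraries overlapped the controls. The log2 change was 0.79 ± 0.05 at 2 h and 0.77 ± 0.05 at 4 h (edgeR adjusted p = 9.15e-17 and 1.96e-16), and from 4 to 8 h it fell by 0.65 ± 0.05. At 8 h it was 0.12 ± 0.05 against the control (edgeR adjusted p = 0.042), a call lost with DESeq2 (adjusted p = 0.095), with DESeq2's size factors in edgeR (0.072), with only the 6 libraries of the comparison (0.062), and without any 1 of 4 libraries (0.070 to 0.223), namely replicates 1 and 2 of the control and of 8 h.

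GL3 (Ft1.1874), whose Arabidopsis namesake acts in trichome formation and anthocyanin synthesis, had 4.53, 3.91 and 4.04 CPM in the controls, 6.66, 6.40 and 6.28 CPM at 2 h, 6.26, 8.68 and 7.71 CPM at 4 h, and 15.2, 14.6 and 16.1 CPM at 8 h. Every PEG library stood above every control, and the 8 h libraries stood above the rest. Its log2 change was 0.63 ± 0.12 at 2 h, 0.86 ± 0.12 at 4 h and 1.88 ± 0.11 at 8 h (edgeR adjusted p at 8 h 8.10e-18). The step from 4 to 8 h was 1.02 ± 0.11, and that from 2 to 4 h was not called (0.23 ± 0.11). Without 4 h replicate 1 the step from 2 to 4 h was 0.35 and was called (edgeR adjusted p = 0.015).

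BHLH42 (Ft1.1211) had 26.7, 22.8 and 27.6 CPM in the controls, 26.2, 27.7 and 29.0 CPM at 2 h, 31.9, 29.9 and 34.8 CPM at 4 h, and 48.8, 50.3 and 45.7 CPM at 8 h. In Arabidopsis this number is that of TT8, the bHLH of seed coat and anthocyanin genes, and whether the deposited symbol follows that numbering is not stated. The 2 h libraries overlapped the controls, and those of 4 and 8 h did not. The log2 change was 0.33 ± 0.07 at 4 h (edgeR adjusted p = 4.76e-05) and 0.91 ± 0.07 at 8 h (1.63e-15), and at 2 h it was not called (0.10 ± 0.07). The step from 2 to 4 h (0.22 ± 0.07, edgeR adjusted p = 0.0054) was lost without 4 h replicate 3 (0.16, adjusted p = 0.062) and without TMM scaling (0.13, adjusted p = 0.087).

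More regulators rose from 4 to 8 h than between 2 and 4 h. From 2 to 4 h 3 regulators rose and 1 fell (53.2% of all genes called, 26.3% higher and 26.9% lower), from 4 to 8 h 6 rose and 1 fell (65.5% called, 33.8% higher and 31.7% lower), and from 2 to 8 h 7 rose and 1 fell (63.3% called, 31.3% higher and 32.0% lower). At 8 h 6 of 9 regulators had their highest mean, and 29.9% of all genes tested did. A difference somewhere among the 4 times was called for all 9 regulators, and for 88.7% of all genes tested. Without TMM the share of calls that were higher went from 51.6% to 70.7% for 4 to 8 h and from 51.4% to 62.5% for 0 to 8 h over all genes.

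Per coding length the order of levels in the control was MYB4 Ft5.2593 (77.8 FPKM), TTG1 (49.8), MYB5 (35.2), MYB4 Ft6.1649 (23.4), BHLH42 (11.5), MYB6 (11.3), MYB12 Ft5.363 (2.90), MYB12 Ft1.1742 (2.83) and GL3 (2.39). The libraries of BHLH42 and MYB6 overlapped (10.2 to 12.3 and 9.32 to 14.3 FPKM), as did those of the MYB12 genes, and GL3 (2.25 to 2.61 FPKM) overlapped MYB12 Ft5.363 (2.11 to 4.01 FPKM). At 8 h the order by FPKM was MYB4 Ft5.2593 (86.2), MYB5 (76.7), TTG1 (60.01), MYB4 Ft6.1649 (36.0), MYB6 (24.5), BHLH42 (23.9), GL3 (9.78), MYB12 Ft5.363 (9.38) and MYB12 Ft1.1742 (0.39). MYB5 had thus passed TTG1, and MYB12 Ft1.1742 was last. FPKM are not TMM-scaled and run higher at 8 h than CPM do.

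The enzymes of the pathway were set beside the regulators from the deposited descriptions. Of 33 tested genes for flavonol and later enzymes (47 listed), 16 were higher and 8 lower at 2 h, 11 and 14 at 4 h, and 20 and 10 at 8 h. The background shares called higher and lower were 31.6% and 31.7% at 2 h, 35.1% and 37.7% at 4 h, and 36.4% and 34.5% at 8 h. Their median log2 change was 0.28, -0.18 and 0.55 at these times. At 8 h 17 of the 33 had their highest mean, beside 29.9% of all genes tested. Of the 7 late enzyme genes tested 6 had their lowest mean at 4 h, a time at which 26.7% of all genes were lowest.

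**Figure D3:**
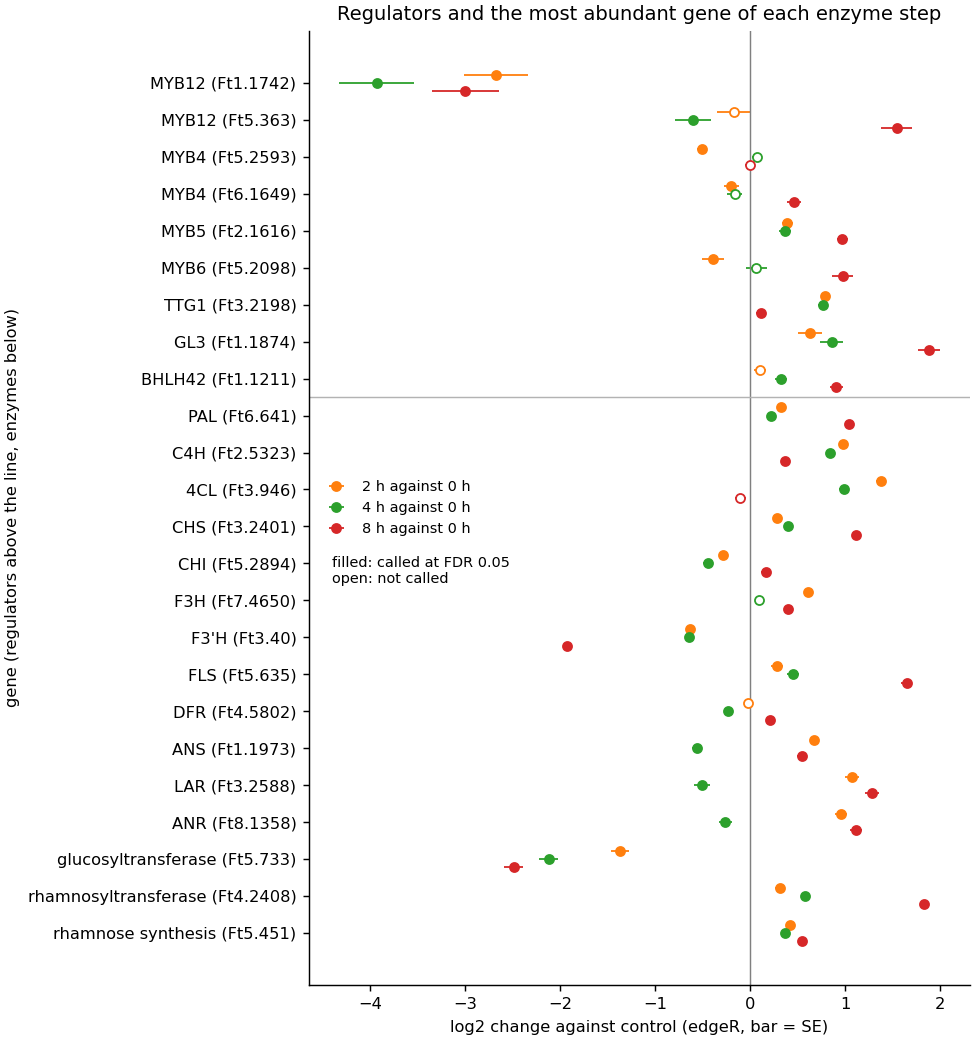
Log2 change against the control (horizontal axis, bars of 1 SE, edgeR) of the 9 regulators and, below the line, of the most abundant gene of each enzyme step at 2, 4 and 8 h. Filled points were called and open points were not. GL3, MYB12 Ft5.363, flavonol synthase and the rhamnosyltransferase are farthest right at 8 h. The plotted ANS, LAR and ANR genes lie right of 0 at 2 and 8 h and left of it at 4 h.

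Of 15 genes listed for enzymes that lead into the pathway 11 passed the filter. Among them 9 were called up at 2 h, 9 at 4 h and 7 at 8 h, beside 31.6%, 35.1% and 36.4% of all genes tested. At each time 2 were called down, beside 31.7%, 37.7% and 34.5% of all genes tested. The lowest log2 changes were -1.44 at 2 h, -1.92 at 4 h and -2.65 at 8 h. Cinnamate 4-hydroxylase (C4H, Ft2.5323) went from 168 ± 8 CPM (SD, n = 3) at 0 h to 333 ± 5 at 2 h, 301 ± 9 at 4 h and 217 ± 11 at 8 h. Of the tested enzyme genes its course was the nearest to that of TTG1, with a root mean square difference of 0.098 between the centred log2 courses over the 4 group means. Phenylalanine ammonia-lyase (PAL, Ft6.641), which makes cinnamate, had 116 ± 1, 145 ± 4, 135 ± 6 and 238 ± 5 CPM at these times, and its course was the enzyme course nearest to that of MYB5 (0.079). 4-coumarate-CoA ligase (Ft3.946) rose at 2 h (1.38 ± 0.05) and 4 h (0.99 ± 0.05) and was not called at 8 h (-0.10 ± 0.05). The other 4-coumarate-CoA ligase gene tested, Ft5.1098, was called lower at each time. Median log2 changes of the 2 genes were 0.34, -0.47 and -0.67 at 2, 4 and 8 h.

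Chalcone synthase (CHS), the first enzyme of flavonoid synthesis, had 9 tested genes, of which 6, 5 and 7 were higher at 2, 4 and 8 h and 1, 2 and 1 lower. Over all genes tested 31.6%, 35.1% and 36.4% were higher at these times and 31.7%, 37.7% and 34.5% lower. The most abundant CHS gene, Ft3.2401, had 323 ± 18, 393 ± 11, 425 ± 3 and 699 ± 31 CPM at 0, 2, 4 and 8 h, a log2 change of 1.11 ± 0.04 at 8 h. Its course was the enzyme course nearest to those of BHLH42 (0.082) and MYB6 (0.253). Other chalcone synthase genes were nearest to GL3 (Ft4.5384, 0.070) and to MYB4 Ft6.1649 (Ft6.201, 0.105). These distances describe 4 group means only, and that of Ft6.201 rests on 112 reads of this gene over the 12 libraries. Of 15430 genes, the number at least as near as the enzyme gene was 4 for GL3, 63 for BHLH42, 245 for MYB4 Ft6.1649 and 368 for MYB6.

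Chalcone isomerase (Ft5.2894) was lower at 2 h (-0.28 ± 0.05) and 4 h (-0.44 ± 0.05) and higher at 8 h (0.17 ± 0.05). The other chalcone isomerase gene tested, Ft6.2359, was not called at 2 h and was higher at 4 and 8 h. It had only 160 reads over the 12 libraries. Flavanone 3-hydroxylase (F3H, Ft7.4650) was higher at 2 h (0.61 ± 0.04) and 8 h (0.40 ± 0.04). This F3H gene is 1 of 6 that passed the filter, and they did not move as 1 group. At 2 h 2 of the 6 were called up and 3 down, with a median log2 change of -0.34. Those called up and down numbered 1 and 2 at 4 h, and 3 and 2 at 8 h. Of all genes tested 31.6%, 35.1% and 36.4% were called up at 2, 4 and 8 h, and 31.7%, 37.7% and 34.5% down. Flavonol synthase (FLS, Ft5.635), the last step to the flavonol and a target of MYB12 in Arabidopsis, had 24.9 ± 0.9, 30.3 ± 2.9, 34.1 ± 1.0 and 78.1 ± 3.5 CPM at 0, 2, 4 and 8 h. Its log2 change of 1.65 ± 0.06 at 8 h stands beside 1.54 ± 0.16 for MYB12 Ft5.363 and -3.0 ± 0.35 for MYB12 Ft1.1742. At 4 h flavonol synthase was higher than the control (0.45 ± 0.06) and neither MYB12 gene was. The other 2 flavonol synthase genes tested were lower at 4 and 8 h.

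The enzyme courses nearest to the MYB12 genes were not those of flavonol synthase. For MYB12 Ft5.363 it was a gene described as naringenin 3-dioxygenase, Ft8.3108, with log2 changes of -0.01, -0.85 and 1.25 at 2, 4 and 8 h (difference 0.186). For MYB4 Ft5.2593 the nearest was also a flavanone 3-hydroxylase gene, Ft4.4966 (0.125). For MYB12 Ft1.1742 it was a putative flavonoid glucosyltransferase, GT3 Ft5.736, with -2.77, -3.03 and -2.81 (difference 0.393). GT3 Ft5.736 had only 140 reads over the 12 libraries. Flavonoid 3'-hydroxylase (Ft3.40), which sets the B-ring hydroxyl of quercetin, went down at every time, from 170 ± 5 to 44.8 ± 2.7 CPM at 8 h (-1.92 ± 0.04). It is 1 of 6 genes of this step that passed the filter. At 2 h 2 of the 6 were called up and 2 down. Those called up and down numbered 2 and 3 at 4 h, and 1 and 5 at 8 h. The shares of all genes tested were 31.6%, 35.1% and 36.4% up at 2, 4 and 8 h, and 31.7%, 37.7% and 34.5% down.

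The late enzymes are those on which MYB, bHLH and WD40 complexes act in Arabidopsis. Among the 7 genes of 14 listed that passed the filter, 4 rose, none fell and 3 were not called at 2 h. At 4 h 1 rose, 4 fell and 2 were not called, and at 8 h 6 rose, none fell and 1 was not called. Over all genes tested 31.6% rose and 31.7% fell at 2 h, 35.1% and 37.7% at 4 h, and 36.4% and 34.5% at 8 h. The median log2 change of the 7 late genes was 0.45 at 2 h, -0.26 at 4 h and 0.55 at 8 h. Leucoanthocyanidin dioxygenase (ANS, Ft1.1973) had 58.9 ± 2.0, 94.3 ± 4.6, 40.1 ± 3.8 and 86.0 ± 2.9 CPM at 0, 2, 4 and 8 h. Leucoanthocyanidin reductase (LAR, Ft3.2588) and anthocyanidin reductase (ANR, Ft8.1358), which form catechins, had log2 changes of 1.07 ± 0.07 and 0.96 ± 0.06 at 2 h, -0.50 ± 0.08 and -0.26 ± 0.07 at 4 h, and 1.29 ± 0.07 and 1.12 ± 0.06 at 8 h. Dihydroflavonol 4-reductase (DFR, Ft4.5802) was not called at 2 h (-0.02 ± 0.04), lower at 4 h (-0.23 ± 0.04) and higher at 8 h (0.21 ± 0.04).

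No regulator of the 9 was called higher at 2 h, lower at 4 h and higher at 8 h. The share of all genes with this course was not counted, so nothing particular to the regulators is read from it. TTG1, MYB5 and GL3 were higher at both 2 and 4 h, and BHLH42 was higher at 4 h. At 4 h ANS Ft1.1973, LAR Ft3.2588 and ANR Ft8.1358 were below the control. Of the 3 LAR genes tested only 1 was called lower then, and of the 2 ANR genes 1 was higher and 1 lower. Between 2 and 4 h MYB4 Ft5.2593 rose by 0.58 ± 0.05, MYB6 by 0.46 ± 0.12 and BHLH42 by 0.22 ± 0.07. MYB12 Ft1.1742 changed by -1.25 ± 0.49, and the other regulators were not called. ANS fell by 1.23 ± 0.05, LAR Ft3.2588 by 1.58 ± 0.08 and ANR Ft8.1358 by 1.22 ± 0.07. Of the 7 late genes 5 fell and 1 rose (0.93), beside 26.9% and 26.3% of all genes tested. Between 4 and 8 h MYB4 Ft5.2593 was not called, and MYB6 rose by 0.91 ± 0.11 and BHLH42 by 0.58 ± 0.06. Of the 7 late genes 6 then rose and 1 fell, beside 33.8% and 31.7% of all genes tested. Whether any regulator acts on these enzyme genes was not tested.

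**Figure D4:**
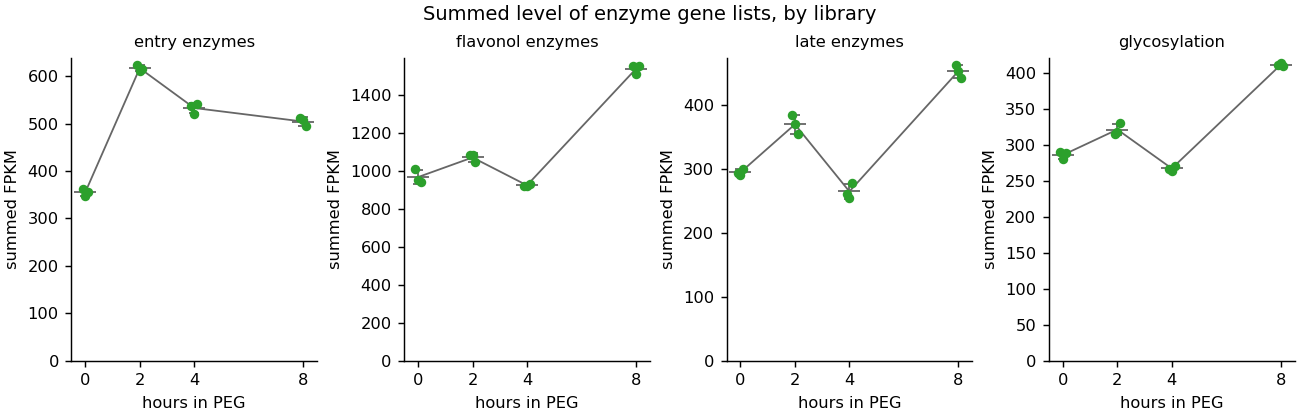
Summed deposited FPKM of the enzyme genes of each list (15 entry, 33 flavonol, 14 late and 31 glycosylation genes) against hours in PEG, without TMM scaling and with vertical axes from 0. Points are libraries and lines join means of 3 with bars of 1 SD. The late list sums to 295, 370, 265 and 453 FPKM at 0, 2, 4 and 8 h, and the entry list is highest at 2 h.

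Glycosylation, the step that turns quercetin to rutin, had 21 tested genes, of which 5 were higher and 7 lower at 2 h, 4 and 10 at 4 h, and 6 and 9 at 8 h. Over all genes tested 31.6%, 35.1% and 36.4% were higher at these times and 31.7%, 37.7% and 34.5% lower. The most abundant rhamnosyltransferase (RT, Ft4.2408) had 39.3 ± 2.5, 48.9 ± 0.7, 58.9 ± 2.0 and 140 ± 6 CPM at 0, 2, 4 and 8 h. Its log2 change at 8 h was 1.83 ± 0.05, beside 1.88 ± 0.11 for GL3. It is described as an anthocyanidin-3-O-glucoside rhamnosyltransferase, and whether it acts in rutin synthesis was not tested. Of the 5 rhamnosyltransferase genes tested 1 was called higher and 2 lower at each time, with a median log2 change of -0.66 at 8 h. The most abundant glucosyltransferase, GT3 (Ft5.733), fell by 2.49 ± 0.10 on the log2 scale at 8 h. Among 12 glucosyltransferase genes tested 3 were called higher and 6 lower at 8 h. The rhamnose synthesis gene NRS/ER (Ft5.451) was higher at each time, by 0.42 ± 0.04, 0.37 ± 0.04 and 0.55 ± 0.04. It is 1 of 4 genes tested for rhamnose synthesis. Of these 3 were higher and none lower at 2 h, 1 and 2 at 4 h, and 2 and 1 at 8 h.

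Other genes carry the symbols of these regulators, and this list was made after the files were seen. There were 15, of which 11 passed the filter, and none of them was named MYB12, TTG1 or BHLH42. Of 4 other GL3 genes, Ft3.2962 was more abundant than Ft1.1874, with 24.7 ± 0.8 CPM at 0 h and 39.8 ± 2.4 at 8 h, where Ft1.1874 had 15.3 ± 0.7. It was lower at 2 h (-0.27 ± 0.07) and higher at 8 h (0.69 ± 0.07). GL3 Ft4.1537 was lower at all 3 times, by -1.19 ± 0.18, -2.04 ± 0.20 and -1.15 ± 0.18, and GL3 Ft5.1380 was higher at all 3, most at 2 h (0.80 ± 0.10). Among 5 other MYB4 genes that passed the filter, 3 rose and 1 fell at 8 h, beside 36.4% and 34.5% of all genes tested. Where such copies are alike in sequence, reads may be split between them, and sequence likeness was not analysed here.

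Further MYB genes of flavonoid subgroups were 10 tested of 12 listed, with 5 higher and 4 lower at 8 h. Of all genes tested 36.4% were higher and 34.5% lower then. The median log2 change of the 10 was 0.81, beside 0.03 over all genes tested. MYB123 (Ft6.1505), whose Arabidopsis namesake TT2 activates proanthocyanidin genes, was higher at 2, 4 and 8 h by 0.68 ± 0.09, 0.73 ± 0.09 and 0.66 ± 0.09. MYB308 (Ft5.273), named for a snapdragon repressor of phenolic synthesis, was lower by -0.38 ± 0.08, -0.80 ± 0.08 and -0.56 ± 0.08. ETC1 (Ft3.344), an R3-MYB inhibitor of bHLH complexes in Arabidopsis, was lower at each time, by -0.40 ± 0.07, -0.37 ± 0.07 and -0.33 ± 0.07.

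Among 4 other bHLH and WD40 partners tested, the EGL1-like gene BHLH2 (Ft3.1169) was higher at 8 h (0.43 ± 0.12, edgeR adjusted p = 0.0021). MYC1 (Ft5.480) had 2.40 ± 0.51 CPM at 0 h, 2.04 ± 0.17 at 2 h, 0.209 ± 0.046 at 4 h and 1.12 ± 0.25 at 8 h. It fell by 3.49 ± 0.34 at 4 h and by 1.09 ± 0.26 at 8 h. LWD1 (Ft1.1516), a WD40 protein of the clock, was not called at any time. Of 24 light regulators 7 were higher and 12 lower at 8 h, beside 36.4% and 34.5% of all genes tested. HY5 (Ft5.45), which in Arabidopsis binds flavonoid genes in the light, had 32.3 ± 2.0, 42.1 ± 3.0, 47.5 ± 1.6 and 57.2 ± 1.3 CPM at 0, 2, 4 and 8 h, a log2 change of 0.82 ± 0.06 at 8 h. The genes annotated as UVR8, the ultraviolet B receptor of Arabidopsis, included Ft1.996, lower at 8 h (-0.38 ± 0.03), and Ft1.162, higher at 8 h (0.23 ± 0.04).

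Outside the pathway the courses nearest to each regulator came from unrelated descriptions. Nearest to MYB12 Ft1.1742 were AHK4 (Ft1.2542, 0.087), a histidine kinase, and BZIP34 (Ft4.5927, 0.121). Nearest to MYB12 Ft5.363 were MAKR2 (Ft4.3732, 0.055) and KIN14I (Ft4.6143, 0.073), those for MYB5 were ppk15 (Ft1.801, 0.031) and RTT10 (Ft4.1349, 0.035), and those for GL3 were DTX24 (Ft6.1520, 0.032) and a pentatricopeptide repeat gene (Ft5.889, 0.042). MYB4 Ft6.1649 lay nearest to IBR5 (Ft5.605, 0.0096) and the callose synthase CALS3 (Ft8.3868, 0.017), and MYB4 Ft5.2593 to SCPL42 (Ft8.4667, 0.025) and CBSDUF3 (Ft1.2058, 0.027). TTG1 lay nearest to a hydroxymethylglutaryl-CoA reductase gene (Ft4.5137, 0.030) and the aconitase ACO3 (Ft5.2221, 0.037), and MYB6 to an acetyltransferase (Ft3.5543, 0.033) and a receptor-like kinase (Ft4.5963, 0.048). For BHLH42 they were a proteasome subunit gene (Ft7.5278, 0.015) and SHT (Ft1.638, 0.020), a spermidine hydroxycinnamoyl transferase by its description. Each value is the root mean square log2 difference over the 4 times.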

How the data were processed

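Total RNA of leaf and stem was sequenced in 12 libraries, and raw read counts per gene and FPKM were deposited by the authors. Per the submitters' processing notes, DESeq2, fastp, HTSeq and HISAT2 were used, in roles and versions that they leave out. The build and the strand setting are not given in the sources used here. As deposited, FPKM equal the count over the library total and a coding length, as checked in genes with at least 100 reads in each library. Counts were fitted with edgeR 4.0.16 (R 4.3.3) as 1 quasi-likelihood model of 12 libraries and 4 groups, with TMM scaling and filterByExpr (minimum count 10, total 15), which left 22063 genes. P-values were adjusted by Benjamini-Hochberg within each contrast at 0.05 over all genes, with no fold minimum. The labels do not say whether replicates are separate plants, so p-values measure the spread between libraries, which may be technical.

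Named genes were all 9 regulators, the gene of highest mean FPKM at each enzyme step and the 3 highest of each other list. For each regulator the 2 nearest courses and the nearest enzyme course were also named, from fitted log2 changes centred on the gene. The 2 nearest came from described genes with a mean of at least 1 CPM. The nearest enzyme course came from the 65 enzyme genes tested, without that minimum. Genes named among those that share a regulator's symbol were chosen after their values were seen. The members and lists were chosen with earlier results of these data known. Alternatives were DESeq2 (1.42.0), its size factors, library size alone, other filters, limma (3.58.1) on log2 FPKM with 1 or 0.1 added, a 2-fold minimum, a fit of the 6 libraries of a pair of times, the replicate number as a block, and each library left out. The fit was tested on simulated data.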

Additional observations from a re-analysis of the deposited data

Results flagged for a closer look

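For 3 regulators the change against the control had opposite called directions at 2 PEG times, and the difference between these times was itself called by edgeR. MYB12 Ft5.363 was lower at 4 h and higher at 8 h, with a log2 difference of 2.14 between them and 3 of 3 libraries at 8 h above all at 4 h, and its fall at 4 h was lost without control replicate 1. MYB4 Ft6.1649 was lower at 2 h and higher at 8 h, with a difference of 0.66 and 3 of 3 libraries at 8 h above all at 2 h, and its fall at 2 h was lost without control replicate 2 or 2 h replicate 1. MYB6 Ft5.2098 was lower at 2 h and higher at 8 h, with a difference of 1.37 and 3 of 3 libraries at 8 h above all at 2 h, and its fall at 2 h was lost without control replicate 1. The rises at 8 h were called in each case with any 1 library left out.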

How the results depend on the processing

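A 2-fold minimum lowered the regulators called to 1 at 2 h, 1 at 4 h and 3 at 8 h, since most changes were below that size. It left 1 from 2 to 4 h, 2 from 4 to 8 h and 3 from 2 to 8 h. The flavonol and late enzyme genes called were then 3, 6 and 14 at 2, 4 and 8 h. Of all genes tested it left 18.6%, 27.1% and 27.0% called at 2, 4 and 8 h. The shares were 8.5% from 2 to 4 h, 17.6% from 4 to 8 h and 18.7% from 2 to 8 h. With limma on log2(FPKM + 1) without a filter 2 regulators were called from 2 to 4 h, beside 42.5% of all genes. The cause was not tested. MYB4 Ft5.2593 changed sign where libraries were scaled by their totals alone. From 0 to 8 h its log2 change was then 0.147 in edgeR and 0.149, 0.151 and 0.149 in limma on FPKM, and from 4 to 8 h it was 0.139, 0.138, 0.139 and 0.138. In edgeR that scaling put the median log2 change of all genes at 0.18 from 0 to 8 h, 0.26 from 4 to 8 h, 0.15 from 2 to 8 h and -0.10 from 0 to 4 h, and moved the share of calls that were higher from 49.5% to 37.1% from 2 to 4 h and from 49.4% to 63.3% from 2 to 8 h. Leaving out 1 library gave 6 to 7 regulators called at 2 h, 6 to 7 at 4 h and 7 to 8 at 8 h, and 23 to 25, 24 to 27 and 28 to 30 enzyme genes. The replicate block gave 7, 6 and 8 regulators called and changed no call of a regulator. Same-numbered libraries did not deviate together (correlations from -0.037 to 0.024 over 18 pairs), so the numbers do not pair them. A stricter filter (mean of 5 CPM) left out both MYB12 genes. MYB12 Ft1.1742 has too few reads in PEG to order the PEG times.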
